A study of Mus musculus with 6 samples.

Results

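Solute carriers are the membrane proteins, grouped into numbered *Slc* families, that move sugars, amino acids, ions, metals, vitamins and nucleotide sugars across the plasma membrane and the membranes of organelles. Of the 287 genes with such a symbol among 15266 listed genes, the 43 carriers of the mitochondrial *Slc25a* family and 2 genes excluded by name were set aside, which left 242. Of these, the 145 with a mean of 50 or more normalized counts over the 6 libraries were analysed, in 43 families, and 97 lay under that level. The members were thus selected on their mean level over all 6 libraries, which is given below as a description. Just inside the limit lay *Slc9a4*, *Slc15a2* and *Slc37a1*, with means of 57.8, 57.3 and 52.5, and just outside it *Slc12a5*, *Slc35b3* and *Slc44a5*, with means of 48.8, 47.9 and 44.8. Over the libraries these 3 genes outside the limit ranged from 27.2 to 79.7, from 30.2 to 84.5 and from 24.7 to 73.7, so that single libraries of each lay above it.

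Libraries came from embryoid bodies (EBs), aggregates of differentiating mouse embryonic stem cells (mESCs), harvested on day 4 in serum without LIF. Both lines derive from W9.5 mESCs and both lack functional EVX1, a homeodomain factor of the primitive streak. EVX1-Δfs clone 14 carries small frameshifts in both *Evx1* alleles with the antisense gene *Evx1as* left in place, whereas Del#3 (*Evx1/Evx1as* Δ2.6 kb) has lost the promoters of both genes. EVX1-Δfs is represented by a single clone, and the clone of Del#3 is not numbered in the labels. Each line has 3 replicates, from differentiations set up on different days with both lines side by side. Libraries of the same replicate number are taken here to share a day, which the labels do not state, and WT EBs were not analysed here. The question asked of the carriers is whether their mRNA differed between these lines, of which Del#3 has also lost most *Evx1as*. Per the paper, some expression of the last *Evx1as* exon remained in Del#3. The lines differ as well in the *Evx1* transcript, the deleted DNA and the clone, which cannot be told apart from the loss of *Evx1as*.

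In most cells, glucose enters through the facilitative GLUT carriers of the *Slc2* family, and lactate leaves with a proton through the MCT carriers of the *Slc16* family. Large neutral amino acids are exchanged by heteromeric carriers, in which the *Slc3a2* heavy chain brings an *Slc7* light chain to the surface. Zinc is brought into the cytosol by the *Slc39* (ZIP) family and removed from it by the *Slc30* (ZnT) family, and the *Slc35* family carries nucleotide sugars into the Golgi and ER for glycosylation. 5 members bear a carrier's name without being carriers: the NHERF scaffolds *Slc9a3r1* and *Slc9a3r2*, *Slc4a1ap*, *Slc7a6os* and *Slc2a4rg-ps*.

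Reads on listed genes numbered 9024579 to 15699124 per EVX1-Δfs library and 9729013 to 12231851 per Del#3 library, and in both lines replicate 1 was the deepest. *Evx1* had 2582 to 4023 reads in EVX1-Δfs and 28 to 48 in Del#3, and *Evx1as* 571 to 879 and 21 to 30, so the targeted genes followed the labels. The streak markers *T* and *Eomes* had means of 1134 and 3303 normalized counts, and of the 6 neural markers *Sox1*, *Pax6* and *Zic1* had means of 3.05, 6.64 and 2.14 but *Nes*, *Otx2* and *Tubb3* of 1802, 388 and 292. In such bulk libraries, fewer cells of a type and less RNA per cell cannot be told apart.

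As will be described, 4 carriers differed across replicate numbers, *Slc39a10*, *Slc4a7* and *Slc15a2* being higher and *Slc34a1* lower in replicate 1. Over the carriers the replicate 1 difference went with transcript length (r = 0.39) and with base composition (r = -0.34 for GC content). To show that composition, the middle 120 coding bases of these genes are printed with G and C in capitals, beside those of *Slc27a3*, which had the next smallest p among carriers low in replicate 1. They were read 5′ to 3′ from the longest coding transcript in the GENCODE annotation of NCBIM37, the assembly known as mm9.
Slc39a10: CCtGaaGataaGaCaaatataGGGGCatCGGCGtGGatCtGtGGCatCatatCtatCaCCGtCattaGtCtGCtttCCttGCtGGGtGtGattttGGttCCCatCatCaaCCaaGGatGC
Slc4a7: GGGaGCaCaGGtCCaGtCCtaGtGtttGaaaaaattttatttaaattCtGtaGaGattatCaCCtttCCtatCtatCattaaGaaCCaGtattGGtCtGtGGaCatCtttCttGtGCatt
Slc15a2: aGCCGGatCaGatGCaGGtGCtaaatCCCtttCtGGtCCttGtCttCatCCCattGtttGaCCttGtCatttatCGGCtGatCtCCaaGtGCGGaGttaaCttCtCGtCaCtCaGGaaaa
Slc34a1: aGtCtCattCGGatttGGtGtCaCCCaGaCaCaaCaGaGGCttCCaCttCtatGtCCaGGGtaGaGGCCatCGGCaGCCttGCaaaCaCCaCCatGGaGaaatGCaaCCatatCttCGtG
Slc27a3: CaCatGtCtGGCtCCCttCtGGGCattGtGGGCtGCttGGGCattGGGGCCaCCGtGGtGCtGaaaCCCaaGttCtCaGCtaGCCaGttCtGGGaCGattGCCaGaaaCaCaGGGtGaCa

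All of these stretches are exonic and coding. That of *Slc39a10*, a plasma membrane zinc importer, joins exons 3 and 4 of 10 (minus strand, chr1:46889401-46889431 and chr1:46884269-46884357). In *Slc4a7*, a sodium bicarbonate cotransporter, it joins exons 13 and 14 of 25 (plus strand, chr14:15598172-15598224 and chr14:15599254-15599320). That of *Slc15a2*, a proton-coupled peptide transporter, spans exons 12 to 14 of 22 (minus strand, chr16:36760157-36760173, chr16:36759312-36759400 and chr16:36757934-36757947). In *Slc34a1*, a sodium phosphate cotransporter best known from kidney, it spans exons 8 to 10 of 15 (plus strand, chr13:55504662-55504700, chr13:55510053-55510116 and chr13:55510354-55510370). In *Slc27a3*, of the fatty acid transport protein family, it joins exons 3 and 4 of 10 (minus strand, chr3:90192250-90192295 and chr3:90191609-90191682). G and C made up 46.7%, 35.8% and 46.7% of the stretches of *Slc39a10*, *Slc4a7* and *Slc15a2*, and 50.8% and 57.5% of those of *Slc34a1* and *Slc27a3*. Over the whole coding sequences the shares were 45.9%, 44.6% and 46.4% against 58.2% and 61.3%. Not every carrier followed this order. *Slc7a14*, with 47.3% over its longest coding transcript, was low in replicate 1 in both lines.

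The carriers together took 0.950% ± 0.0776 of the reads on listed genes in the EVX1-Δfs libraries and 0.958% ± 0.0416 in those of Del#3 (SD, n = 3 each). Their signal was unevenly spread. The 2 glucose carriers *Slc2a3* and *Slc2a1* held 28.3% of it, the 5 highest members 44.4% and the 10 highest 55.9%. 15 members had means of 1000 or more, 101 lay from 100 to 1000 and 29 from 50 to 100, with a median of 228. Counts are not divided by transcript length here unless said otherwise. A member is called the highest of its family or class only where this held by count and also per kilobase of the longest coding transcript.

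**Figure D1:**
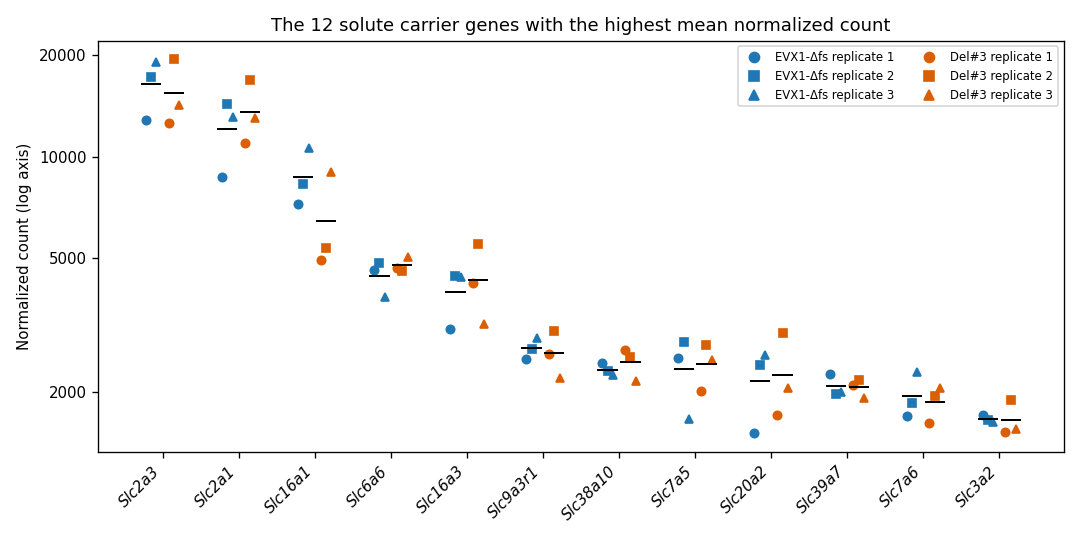
Normalized counts (log axis) of the 12 carriers with the highest means. Each point is a library, colour marks the line, shape the replicate number, and the short black line the mean of 3. *Slc2a3*, *Slc2a1* and *Slc16a1* have the largest counts, and for each of the 12 genes the lines overlap.

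Sugar carriers made up the largest class by signal, with 30.5% of it from 11 genes. *Slc2a3* (GLUT3), a high-affinity glucose carrier, had 12834, 17236 and 19157 in the EVX1-Δfs and 12638, 19478 and 14249 in the Del#3 libraries, in normalized counts and, as in every such pair of trios below, in the order of replicates 1 to 3. *Slc2a1* (GLUT1), the widespread basal glucose carrier, had 8722, 14344 and 13122 in the EVX1-Δfs and 10982, 16858 and 13011 in the Del#3 libraries. In both lines replicate 1 was the lowest library for each gene. By count *Slc2a3* exceeded *Slc2a1* in all 6 libraries, with ratios from 1.10 to 1.47, but per kilobase of the longest coding transcript the order was the other way in all 6, with ratios from 0.721 to 0.969. Which of the pair appears higher thus rests on the length used. The endosomal carrier *Slc2a8* had a mean of 287, and *Slc2a4rg-ps*, named as a pseudogene of the *Slc2a4* regulator, had 77.2, 85.6 and 74.4 in the EVX1-Δfs and 77.3, 88.2 and 111 in the Del#3 libraries.

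Elsewhere in the class, *Slc37a3*, of the sugar-phosphate exchanger family, had 645, 730.1 and 751 in the EVX1-Δfs and 621, 683 and 592 in the Del#3 libraries. *Slc37a4*, the glucose-6-phosphate carrier of the ER, had a mean of 162, and *Slc37a1* had 48.2, 56.3 and 31.9 in the EVX1-Δfs and 66.9, 65.0 and 47.0 in the Del#3 libraries. *Slc45a4* and *Slc50a1* (SWEET1) had means of 307 and 206. Members of the sodium-coupled *Slc5* family were placed in the class by family number, although neither *Slc5a6*, which takes up biotin and pantothenate and had a mean of 275, nor *Slc5a5*, the iodide symporter, with one of 157, carries sugar. *Slc2a4rg-ps* was likewise placed there by its symbol. None of the 11 passed the test between lines, and in 6 both replicate 1 libraries lay below the other 4, beside 22.7% of all genes tested.

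Amino acid and peptide carriers held 21.0% of the signal in 29 genes. This share includes *Slc7a6os*, placed here by symbol although it is no carrier, with a mean of 984. The taurine carrier *Slc6a6* was the highest, with 4595, 4825 and 3839.9 in the EVX1-Δfs and 4678, 4569 and 5046 in the Del#3 libraries. Its family mates, the creatine carrier *Slc6a8* and the glycine carrier *Slc6a9*, had a mean of 472 and, for the latter, 115, 131 and 48.4 in the EVX1-Δfs and 90.9, 110.3 and 149.5 in the Del#3 libraries. The heavy chain *Slc3a2* (CD98) had 1709, 1656 and 1628 in the EVX1-Δfs and 1517, 1894 and 1555 in the Del#3 libraries, and its light chain *Slc7a5* (LAT1) had 2519, 2821 and 1660.0 in the EVX1-Δfs and 2013, 2754 and 2494 in the Del#3 libraries. *Slc3a2* stayed within a factor of 1.25 between its highest and lowest library. A further light chain, *Slc7a6*, had 1700.1, 1855 and 2300.4 in the EVX1-Δfs and 1617, 1940.3 and 2054 in the Del#3 libraries. Per kilobase *Slc7a5* exceeded *Slc3a2* in 5 of 6 libraries, with *Slc3a2* to *Slc7a5* ratios from 0.734 to 1.23. *Slc7a6os*, which neighbours *Slc7a6*, had 875, 1054 and 931 in the EVX1-Δfs and 824, 1139 and 1079.7 in the Del#3 libraries.

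The cationic amino acid carriers *Slc7a1* and *Slc7a3* had a mean of 443 and, for the latter, 376, 600.0 and 787 in the EVX1-Δfs and 418, 752 and 281 in the Del#3 libraries. In both lines the latter varied widely, and its highest EVX1-Δfs and Del#3 libraries came from different replicates. The glutamine and neutral amino acid exchanger *Slc1a5* (ASCT2) had 301, 410.2 and 392 in the EVX1-Δfs and 380.2, 454 and 389 in the Del#3 libraries. Per kilobase its mean was 140.9, against 87.3 for the glutamate carrier *Slc1a3* and 89.2 for *Slc1a4* (ASCT1). In the *Slc38* family, *Slc38a10* was the highest, with 2433, 2306 and 2242 in the EVX1-Δfs and 2663, 2545 and 2162 in the Del#3 libraries. *Slc38a2* (SNAT2), an amino acid carrier induced on starvation, had a mean of 1115, and the lysosomal *Slc38a9*, an arginine sensor upstream of mTORC1, one of 70.8. *Slc38a5* had 60.7, 83.2 and 116 in the EVX1-Δfs and 35.9, 79.0 and 91.8 in the Del#3 libraries.

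In the *Slc43* family, *Slc43a1* (LAT3), a branched-chain amino acid carrier, had 261, 369 and 375 in the EVX1-Δfs and 219, 483 and 343 in the Del#3 libraries. *Slc43a3*, a purine nucleobase carrier placed here by its family, had 107, 177 and 202 in the EVX1-Δfs and 94.0, 178 and 136 in the Del#3 libraries. For both, the 2 replicate 1 libraries were the lowest of the 6. The lysosomal carrier *Slc15a4* had a mean of 389 and *Slc36a1* (PAT1) one of 137. None of the 29 genes passed the test between lines.

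*Slc32a1*, the vesicular carrier of GABA and glycine, had the smallest unadjusted p of all 145 carriers between lines. Its normalized counts were 87.1, 71.5 and 60.3 in the EVX1-Δfs and 104, 137 and 137 in the Del#3 libraries, so that the lines did not overlap and Del#3 was higher. The means were 73.0 ± 13.5 in EVX1-Δfs and 126 ± 19.2 in Del#3 (SD, n = 3 each). The log2 fold change, on the log2(normalized count + 1) scale, was 0.78 (SE 0.31, 95% interval 0.10 to 1.46) by limma, with a p of 0.0288 before adjustment and 1.00 after Benjamini-Hochberg adjustment over all 12891 genes tested. By position, 24.8% of its exonic bases lie under *Gm14205* on the opposite strand, so its count is uncertain if strand was not used in counting.

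Carriers of monocarboxylates, bile acids and fatty acids held 14.9% of the signal in 13 genes. *Slc16a1* (MCT1), which carries lactate and pyruvate, had 7257, 8306 and 10591 in the EVX1-Δfs and 4939, 5341 and 9004 in the Del#3 libraries. It was lower in Del#3 in all 3 same-numbered pairs, with a log2 fold change of -0.48 (SE 0.28), but the lines overlapped and the limma p was 0.124 without and 0.0303 with the replicate block, in neither case past the threshold after adjustment (0.992 with the block). *Slc16a3* (MCT4), typical of glycolytic cells, had 3069.6, 4418 and 4388 in the EVX1-Δfs and 4214, 5503 and 3184 in the Del#3 libraries. Per kilobase *Slc16a1* exceeded *Slc16a3* in 5 of 6 libraries, the exception being Del#3 replicate 2 with a ratio of 0.951, against a highest ratio of 2.77. Their partners *Bsg* (basigin) and *Emb* (embigin), which carry MCTs to the surface, had means of 5465 and 3592.

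In the *Slc27* family of fatty acid transport proteins, *Slc27a4* was the highest, with 723, 974 and 1028 in the EVX1-Δfs and 678, 1304 and 1014 in the Del#3 libraries, followed by *Slc27a3*, *Slc27a1* and *Slc27a2* with means of 446, 367 and 260. *Slc10a7*, of the bile acid carrier family, had a mean of 311. None of the 13 passed the test between lines.

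Carriers of ions and of acid-base equivalents held 13.4% of the signal in 29 genes. This share includes *Slc9a3r1*, *Slc4a1ap* and *Slc9a3r2*, placed here by symbol although they are no carriers, with means of 2651, 621 and 207. The anion exchanger *Slc4a2* had 919, 965 and 898 in the EVX1-Δfs and 866, 912 and 984 in the Del#3 libraries. Its highest library was only 1.14 times its lowest, the smallest ratio among all 145 carriers. By contrast the bicarbonate cotransporter *Slc4a7* had 209, 29.3 and 65.0 in the EVX1-Δfs and 288, 88.2 and 133 in the Del#3 libraries, and its ratio of 9.82 was the largest. The related *Slc4a4* had 143, 75.0 and 72.1 in the EVX1-Δfs and 179, 95.2 and 202 in the Del#3 libraries, and *Slc4a8* had 91.7, 63.3 and 36.6 in the EVX1-Δfs and 98.0, 91.7 and 74.8 in the Del#3 libraries. All 3 of these bicarbonate carriers were higher in Del#3 in each of the 3 same-numbered pairs, although the lines overlapped for each, whereas *Slc4a5*, a further sodium bicarbonate cotransporter with a mean of 125, was lower in each pair. Of all 145 carriers 15 were higher in all 3 pairs and 19 lower, beside 1557 and 1417 of 12891 genes. The log2 fold changes of *Slc4a7*, *Slc4a4* and *Slc4a8* were 1.02 (SE 0.65), 0.71 (SE 0.39) and 0.54 (SE 0.39), with limma p of 0.148, 0.0986 and 0.187. With the replicate block these became 0.00505, 0.0355 and 0.0831, and the adjusted p were 0.748, 0.992 and 0.992.

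In the *Slc9* family, the name of the highest member, *Slc9a3r1*, is that of a scaffold for membrane proteins (NHERF1), with 2513, 2677 and 2898 in the EVX1-Δfs and 2591, 3027 and 2199 in the Del#3 libraries. *Slc9a3r2* had 224, 207 and 222 in the EVX1-Δfs and 242, 159 and 189 in the Del#3 libraries. The exchanger *Slc9a4* had 60.7, 77.3 and 24.8 in the EVX1-Δfs and 61.4, 53.4 and 69.4 in the Del#3 libraries, and EVX1-Δfs replicate 3 was its lowest library. *Slc4a1ap*, an adaptor named for the anion exchanger it binds, had 557, 654 and 757 in the EVX1-Δfs and 548, 598 and 614 in the Del#3 libraries.

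Among the cation chloride cotransporters, *Slc12a4* (KCC1) was the highest, with 507, 654 and 501 in the EVX1-Δfs and 486, 621 and 616 in the Del#3 libraries. *Slc12a2* (NKCC1), which brings chloride in, had 125, 37.5 and 41.4 in the EVX1-Δfs and 149.8, 48.8 and 94.0 in the Del#3 libraries, with both replicate 1 libraries above the other 4. The sodium phosphate carriers *Slc20a2* and *Slc20a1*, also known as retrovirus receptors, had, for the former, 1507, 2401 and 2574 in the EVX1-Δfs and 1710.3, 2987 and 2053 in the Del#3 libraries, and for the latter a mean of 1497. The 4 *Slc26* anion exchangers were low. *Slc26a6* had 63.4, 58.6 and 78.0 in the EVX1-Δfs and 47.0, 88.2 and 60.9 in the Del#3 libraries, and *Slc26a10* had 72.6, 75.0 and 29.5 in the EVX1-Δfs and 84.5, 62.7 and 47.0 in the Del#3 libraries. None of the 29 passed the test between lines.

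Metal carriers held 8.97% of the signal in 25 genes. The highest was the ER zinc carrier *Slc39a7* (ZIP7), with 2255, 1978 and 2005 in the EVX1-Δfs and 2103, 2175 and 1916 in the Del#3 libraries. Its libraries differed by a factor of 1.18 at most, though 80.1% of its exonic bases are shared on the same strand with *Gm20427*, so that its count is uncertain. *Slc39a10* had 734, 198 and 398 in the EVX1-Δfs and 858, 265 and 529.7 in the Del#3 libraries. In the opposing *Slc30* family, *Slc30a9* was the highest, with 803, 1010.2 and 1171 in the EVX1-Δfs and 796, 656 and 1039 in the Del#3 libraries, and *Slc30a4* had 80.5, 44.5 and 96.9 in the EVX1-Δfs and 96.4, 96.4 and 79.0 in the Del#3 libraries. Of the zinc-responsive genes, *Mt1* and *Mt2* (metallothioneins) and *Mtf1* (their activator), none passed the test in either comparison.

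The copper importer *Slc31a1* had a mean of 771, the iron carrier *Slc11a2* (DMT1) 284 and the iron exporter *Slc40a1* (ferroportin) 75.0. For the Golgi-associated *Slc39a9*, the Del#3 libraries lay below those of EVX1-Δfs, with 193 to 218 against 221 to 288. For the magnesium carrier *Slc41a1* the Del#3 libraries lay above, with 211 to 269 against 178 to 211. Both gaps between the lines were narrow. None of the 25 passed the test between lines.

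Carriers of nucleotide sugars and other carriers of the Golgi and ER held 7.30% of the signal in 20 genes, 19 of them in the *Slc35* family. The largest count was that of *Slc35e1*, an orphan member, with 1329, 1526 and 1579.7 in the EVX1-Δfs and 1399, 2242 and 1602 in the Del#3 libraries. Per kilobase its mean of 229.5 lay below those of *Slc35b1* with 345 and *Slc35c2* with 339, among the members with a transcript length. *Slc35b2*, which supplies the Golgi with the sulfate donor PAPS, had 577, 466 and 599 in the EVX1-Δfs and 357, 517 and 419.7 in the Del#3 libraries. *Slc35f5* had 158, 138 and 188 in the EVX1-Δfs and 111, 103 and 154 in the Del#3 libraries, and *Slc35g1* had 132, 76.2 and 99.2 in the EVX1-Δfs and 76.5, 54.6 and 81.2 in the Del#3 libraries. The last pair were lower in Del#3 in all 3 same-numbered pairs, and *Slc35b2* in 2 of them. Log2 fold changes were -0.35 (SE 0.25), -0.40 (SE 0.29) and -0.51 (SE 0.34), with limma p of 0.187, 0.201 and 0.16. Of the 20 genes, 16 had a log2 fold change below 0 and 4 above, with a median of -0.05, beside 6394 of 12891 genes below 0. This split was not tested. *Slc35a1* and *Slc35a2*, which carry CMP-sialic acid and UDP-galactose, had means of 372 and 267, and the acetyl-CoA carrier *Slc33a1* had a mean of 277. None of the 20 passed the test.

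Carriers of vitamins, nucleosides and choline held 3.20% of the signal in 13 genes. *Slc23a2* (SVCT2), the sodium-coupled ascorbate carrier, had 315, 381 and 398 in the EVX1-Δfs and 312, 248 and 279.8 in the Del#3 libraries, the lines not overlapping and Del#3 being lower. Its log2 fold change was -0.38 (SE 0.25), with a limma p of 0.155. The equilibrative nucleoside carrier *Slc29a1* (ENT1) had 736, 626 and 616 in the EVX1-Δfs and 643, 807 and 499.8 in the Del#3 libraries, and *Slc29a4* had 91.7, 132 and 69.7 in the EVX1-Δfs and 87.7, 138 and 108 in the Del#3 libraries. The choline carrier-like *Slc44a2* had a mean of 731, the largest count of this class, but per kilobase its 212 lay below the 295 of *Slc29a1*. The folate carrier *Slc19a1* and the thiamine carrier *Slc19a2* had means of 243 and 192, and the riboflavin carrier *Slc52a2* had one of 234.

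The 5 carriers of organic ions and of vesicles held 0.688% of the signal. *Slc22a23* had the largest count, with 311, 203 and 199.7 in the EVX1-Δfs and 246, 228 and 208 in the Del#3 libraries, and *Slc22a17* had 127, 200.4 and 144 in the EVX1-Δfs and 191, 118 and 237 in the Del#3 libraries. Per kilobase *Slc22a17* was the higher, with means of 65.5 and 37.2. The carnitine carrier *Slc22a5* (OCTN2) had a mean of 95.7. In the *Slc17* family, the lysosomal sialic acid carrier *Slc17a5* had a mean of 121 and the vesicular nucleotide carrier *Slc17a9* one of 79.2. For each of the 3 *Slc22* members the lines overlapped.

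**Figure D2:**
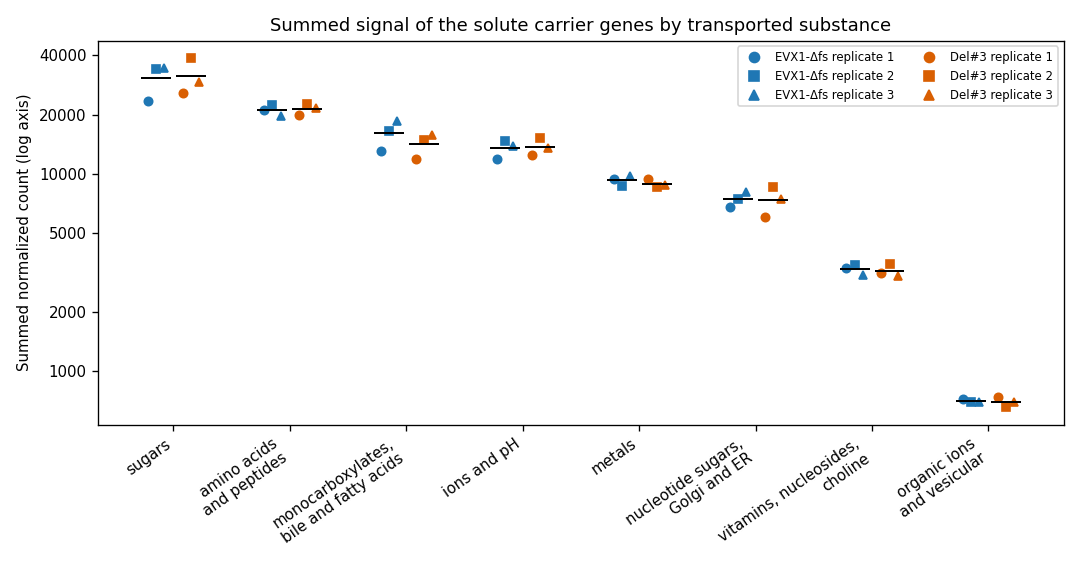
Summed normalized counts (log axis) of the carriers of each class in each library. Colour marks the line, shape the replicate number, and the short black line the mean of 3. In every class the lines overlap, and for sugars, monocarboxylates, ions and the Golgi and ER class both replicate 1 libraries lie below the other 4.

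The sugar class summed to 30672 ± 6204 normalized counts in EVX1-Δfs and 31278 ± 6759 in Del#3, and the amino acid class to 21094 ± 1304 and 21470 ± 1366 (SD, n = 3 each). The monocarboxylate class summed to 16062 ± 2785 and 14178 ± 2015 (SD, n = 3 each). Each of these differences between lines was smaller than either SD. By same-numbered pairs, the monocarboxylate class went from 13075 in EVX1-Δfs to 11906 in Del#3, from 16524 to 14882 and from 18587 to 15748, lower in Del#3 in all 3 pairs. The sugar and amino acid classes were higher in Del#3 in 2 of 3 pairs. These class sums were not tested.

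Across all carriers, none of the 145 was called between lines, called meaning an adjusted p under 0.05 by limma, against 2 of 12891 genes tested, 0.0155%. edgeR and DESeq2 also called 0 carriers. By unadjusted p under 0.05, 1 carrier passed (*Slc32a1*), 0.690% against a background of 1.03%. With the replicate block 4 passed that level (*Slc4a7*, *Slc32a1*, *Slc16a1* and *Slc4a4*), 2.76% against 4.62%, and the smallest adjusted p among carriers was 0.748. The lines did not overlap, with Del#3 higher, for *Slc32a1* and *Slc41a1*, 2 genes beside a background of 1.71%, and with Del#3 lower for *Slc23a2* and *Slc39a9*, 2 genes beside 1.80%.

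Log2 fold changes were above 0 for 71 carriers and below 0 for 74, with a median of -0.0049 beside 0.0022 over all genes tested. They exceeded 0.5 in size for 6 carriers (4.14% against 10.1% of all genes). The carriers were held to a mean of 50 or more, a limit not set on all genes tested. This share and the interval shares that follow are thus not like for like. The 95% interval stayed inside a 2-fold change, up or down, for 108 carriers (74.5% against 61.1% of all genes) without the replicate block and for 133 (91.7% against 76.2%) with it. For the other carriers a 2-fold difference lay within the interval, and an adjusted p above the threshold does not show that the lines are alike. Among the functional lists, 0 genes were called between lines of the 10 carrier partners and pumps tested, of 12 amino acid response genes, of 3 zinc response genes and of 6 NRF2 targets.

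**Figure D3:**
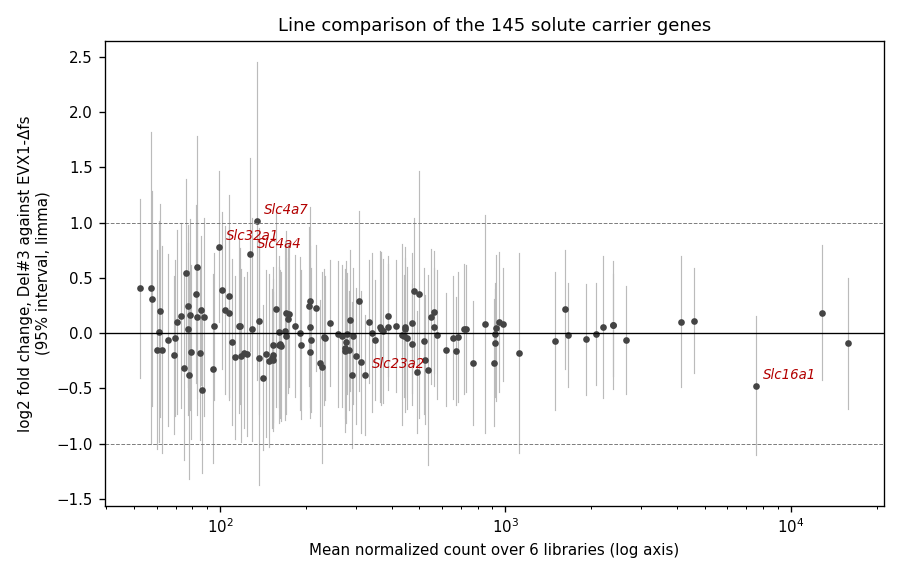
Log2 fold change of each of the 145 carriers, Del#3 against EVX1-Δfs, with its 95% limma interval (vertical bar), against the mean normalized count (log axis). Dashed lines mark a 2-fold change. The points lie around 0, and the 5 carriers with the smallest p are named, of which *Slc32a1* alone has an interval that leaves out 0.

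Replicate numbers separated the libraries more than the lines did. For the median carrier, replicate numbers took 64.6% of the sum of squares and the lines 4.57%, beside 64.4% and 6.70% over all genes tested. Replicate numbers took 2 coefficients in that model and the lines 1. The limma F test across replicate numbers called 4 carriers, 2.76% against a background of 4.24%. By unadjusted p under 0.05 it passed 34, 23.4% against 27.7%.

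The lowest p was that of the zinc importer *Slc39a10*, with 734 and 858 normalized counts in replicate 1 of EVX1-Δfs and Del#3, 198 and 265 in replicate 2, and 398 and 530 in replicate 3. Its adjusted p was 0.0238 by limma, and in both lines the order of the replicates was the same. The bicarbonate carrier *Slc4a7* had 209 and 288, then 29.3 and 88.2, then 65.0 and 133 (adjusted p = 0.0293). The peptide carrier *Slc15a2* had 71.3 and 135, then 18.8 and 25.5, then 48.4 and 44.9 (adjusted p = 0.0458). These 3 were highest in replicate 1 and lowest in replicate 2 in both lines. On the log2 scale replicate 1 lay above the mean of the others by 1.29, 1.81 and 1.58, and by 0.73, 0.94 and 1.11 with a correction for GC content and length.

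The phosphate carrier *Slc34a1* went the other way, with 397 and 449 in replicate 1, 1127 and 1126 in replicate 2 and 982 and 1030 in replicate 3 (adjusted p = 0.0238). Its log2 difference of replicate 1 from the others was -1.33, and -1.26 with that correction. *Slc27a3* had 283 and 294, then 540.3 and 559, then 501 and 501, with an adjusted p of 0.0624. In both genes same-numbered libraries of the lines lay close together. Without EVX1-Δfs replicate 1, of the 4 called carriers only *Slc39a10* was still called. Without Del#3 replicate 1, *Slc39a10* and *Slc4a7* were.

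**Figure D4:**
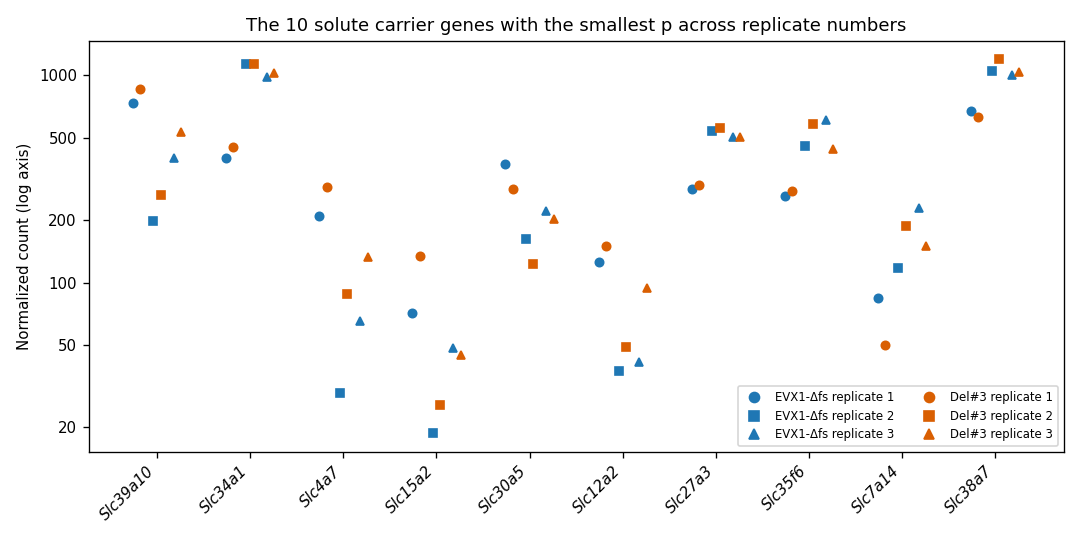
Normalized counts (log axis) of the 10 carriers with the smallest p across replicate numbers, from left to right. Within each gene the replicates 1, 2 and 3 stand side by side, marked by shape, and colour marks the line. Replicate 1 is highest in *Slc39a10*, *Slc4a7*, *Slc15a2*, *Slc30a5* and *Slc12a2*, and lowest in the other 5 genes.

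Both replicate 1 libraries lay above the other 4 for 26 carriers, 17.9% beside a background of 22.2%, and below them for 43, 29.7% beside 22.7%. The limit on the mean could let in low members, such as *Slc15a2*, through high replicate 1 libraries. By class, both replicate 1 libraries lay above for 7 of 25 metal carriers and below for 4. In the sugar class they lay above for 0 and below for 6 of 11, in the amino acid class above for 6 and below for 12 of 29, and in the Golgi and ER class above for 2 and below for 8 of 20.

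The carriers high in replicate 1 had a median GC content of 48.6% and a median length of 4776 bp (26 genes), and those low in it 52.9% and 3081 bp (42 of 43 genes with a transcript). Over the 140 carriers with a transcript, the replicate 1 difference correlated with GC content at r = -0.34 and with log2 length at r = 0.39, beside -0.39 and 0.40 over 11994 genes. These correlations are across genes that share the same libraries, and are given as a description. With a correction for GC content and length, 11 of 140 carriers were called, 7.86% against a background of 3.70%, of which *Slc39a10* and *Slc34a1* were shared with the 4 called without it, whereas *Slc4a7* and *Slc15a2* had adjusted p of 0.132 and 0.104. The correction was chosen after the data were examined.

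**Figure D5:**
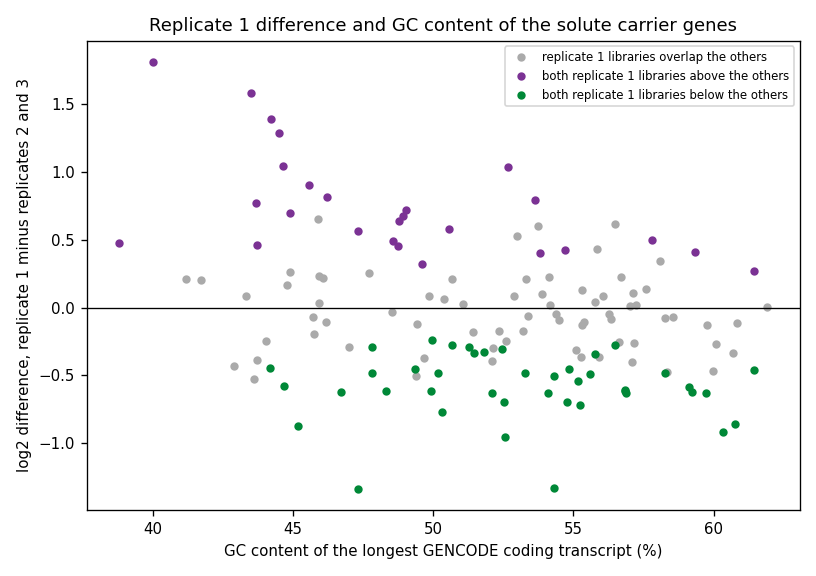
Log2 difference of replicate 1 from the mean of replicates 2 and 3, averaged over the lines, against GC content of the longest coding transcript, for 140 carriers. Purple points have both replicate 1 libraries above the other 4 and green points both below. The differences fall with GC content (r = -0.34 across genes).

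Other measures were compared between replicate 1 and the rest. Replicate 1 was the deepest library of each line, with 15699124 and 12231851 reads beside 9024579 to 9802928. The summed streak and nascent mesoderm markers (9 genes) ranged from 7516 to 8846 in the replicate 1 libraries and from 8892 to 10847 in the others, and those of definitive endoderm (6 genes) from 3021 to 3801 and from 3934 to 4722. The summed neural markers (6 genes) ranged from 2083 to 2227 and from 2232 to 3098, with *Sox1*, *Pax6* and *Zic1* under the filter for low counts in that list. The summed levels of the epiblast, visceral and parietal endoderm, blood and heart lists overlapped between replicate 1 and the rest. Gene by gene, with a background of 22.2% of all genes for both replicate 1 libraries above the other 4 and 22.7% for both below, 5 of 10 blood and endothelial markers lay above and 1 below. The embryonic globins *Hbb-bh1* and *Hba-x* had 764 and 714, and 221 and 355, in replicate 1 of EVX1-Δfs and Del#3, against at most 704 and 78.0 in the others. The erythroid factor *Gata1* had 170 and 207 and the endothelial *Pecam1* and *Cdh5* 156 and 182, and 129 and 167, against at most 160.2, 101 and 109. Of 16 visceral and parietal endoderm markers, of which 12 passed the filter for low counts, 5 lay above and 2 below, of 9 streak markers 0 and 2, of 8 epiblast markers 0 and 1, of 6 definitive endoderm markers 1 and 3, and of 6 neural markers 1 and 1. Of 5 heart markers 3 lay above and 0 below, but *Nkx2-5* had 19.9 both in Del#3 replicate 1 and in EVX1-Δfs replicate 2, *Tnnt2* was under the filter for low counts, and *Hand1*, the most abundant, overlapped, with 3893 and 4518 in replicate 1 and 4946 in Del#3 replicate 3. Lists this small were not compared with the background by a test. Of the genes of all these lists, *Hba-x*, an embryonic globin, was called across replicate numbers, and none was called between lines. The part of depth, GC content, length or cell types in the carriers' differences was not tested, and replicate number and day of differentiation cannot be told apart.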

How the data were processed

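D4 EBs of 2 lines were profiled by mRNA-seq, with 3 replicates each. Per the paper, TopHat2 followed by TMAP aligned the Ion Proton reads to mm9, and HTSeq counted them with default options, and the submitters' processing notes also name DESeq2. The signal values deposited by the authors are counts after normalization. Within each library 100% of values were whole multiples of 1 step (tolerance 0.01), so the whole reads were recovered.

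Lines were compared with limma (version 3.58.1, R 4.3.3) with a trend, after adding a pseudocount of 1 and taking log2. The recovered reads of 12891 genes passed filterByExpr (edgeR 4.0.16, minimum count 10), which all 145 carriers did. The design named this test for normalized values. Adjustment followed Benjamini and Hochberg over all genes tested (threshold 0.05). Replicate numbers were compared by an F test in a model with line and replicate number. With 3 libraries a line, the spread between differentiations sets the precision, and intervals do not cover clonal differences.

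The study's design states that replicates were side-by-side differentiations set up on different days, so same-numbered libraries were taken as pairs. Their deviations correlated at 0.74, 0.32 and -0.05 across genes in replicates 1 to 3.

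Transcript length and GC content were those of the longest coding transcript in the GENCODE annotation of NCBIM37, found for 140 carriers. The annotation used for counting is not given in the sources used here.

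The members and gene lists were chosen with earlier results of these data known. All 6 libraries were given for members past the threshold, the 12 highest by mean and 10 highest per kilobase, the 10 with the smallest p between lines, the highest member and that with the largest change in each family of 3 or more, those next to the limit of 50, and those that are no carriers. *Slc7a6os* and *Slc2a4rg-ps* were recognised as the latter after their values were seen. A few members that this rule covers are not reported here. Alternatives were pseudocounts of 0.1 and 5, TMM factors, total reads, no filter or 10 reads in every library, edgeR's quasi-likelihood test, DESeq2 (1.42.0), the replicate block, an adjusted p under 0.1, means of 200 or more, and each library left out. The limma fits were also run on simulated counts with planted changes but no GC content or length effect. That run does not cover the shifts seen here, and its outcome is not reported.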

Additional observations from a re-analysis of the deposited data

How the results depend on the processing

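Between lines, 0 carriers were called in every alternative run, among them edgeR, DESeq2 and the replicate block, and also in the paired analysis with a correction for GC content and length, which was chosen after the data were examined. The log2 fold changes of the 10 carriers with the smallest p kept their direction in all alternatives in which they were fitted, but single libraries moved the size of several. That of *Slc4a7*, 1.02, became 1.76 and 0.36 without EVX1-Δfs replicates 1 and 2 and 0.55 without Del#3 replicate 1, and that of *Slc4a8*, 0.54, became 0.85 and 0.20 without EVX1-Δfs replicates 1 and 3. That of *Slc16a1*, -0.48, became -0.31 and -0.75 without Del#3 replicates 1 and 3, that of *Slc35g1*, -0.51, became -0.31 without EVX1-Δfs replicate 1 and -0.34 without Del#3 replicate 2, and that of *Slc35b2*, -0.35, became -0.22 without Del#3 replicate 1. With the replicate block and the GC content and length correction, *Slc4a7*, *Slc4a4* and *Slc4a8* had 0.44, 0.47 and 0.29. The number called across replicate numbers moved from 4 to 9 with DESeq2, 2 without the line in the model, 12 at an adjusted p under 0.1 and 11 of 140 with the GC content and length correction, which was also added after the data were examined. Calls over all genes moved as well, from 546 of 12891 to 1293 with DESeq2, 435 without the line, 1603 at an adjusted p under 0.1 and 444 of 11994 with the correction. TMM factors and total reads each called 3 carriers, beside 334 and 317 of 12891 genes. With each library left out the number of carriers ranged from 1 (without EVX1-Δfs replicate 1) to 26 (without Del#3 replicate 3), beside 197 of 13103 and 3175 of 13123 over all genes, with 17 and 19 without EVX1-Δfs replicates 2 and 3 (2217 of 13143 and 2401 of 13153 over all genes), and 2 and 6 without Del#3 replicates 1 and 2 (211 of 13031 and 1453 of 13133). *Slc39a10* was called in all 16 alternatives, *Slc34a1* in 14, *Slc4a7* in 13 and *Slc15a2* in 9. The median log2 fold change was 0.0285 with total reads and ranged from -0.0611 to 0.0442 with each library left out. The cause of these shifts was not tested. With 3 libraries a line, the depth and spread placed the 95% interval of the line difference inside a 2-fold change for 108 of 145 carriers (74.5%, against 61.1% of all genes), and for 133 with the replicate block (91.7% against 76.2%). The carriers' limit on the mean was not set on all genes, so these shares are not like for like.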
